A study of Mus musculus with 9 samples.

Results

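The genes described here are the cell cycle and replication genes of mouse mammary tumours, a list of 42 S phase and G2/M genes taken by symbol; no measured value enters the rule, although the list was drawn up with earlier results of these data known. Of these, 41 had a row among the 18484 genes of the tables, 16 of 17 S phase genes and all 25 genes of G2 and mitosis, called mitosis members below. Cdt1, a licensing factor, was without a row, so its expression was not analysed here and only its promoter was searched. RNA-seq was made from 9 mammary tumours, 1 library each, of BlgCre-NeuKI mice on a mixed FVB and C57Bl6 background, none of them treated. All of these mice carried 1 copy of an activated rat Neu (NeuNT) behind a floxed stop cassette in the endogenous Erbb2 gene, and Cre was driven by the Beta-lactoglobulin promoter, which acts in luminal oestrogen receptor-negative cells.

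The 5 tumours labelled high-amplified at the Erbb2/Neu locus were all adenocarcinomas of no special type, written AC(NST). The class follows qPCR on tumour DNA, and the copy number assays differed for MS1218.2 (droplet PCR and exome reads did not match qPCR) and for MS1213.1 (droplet PCR did not). For MS1155.3 the study excluded the Neu droplet PCR as inconsistent. In MS1349.1 the study's droplet PCR gave no evidence of stop cassette recombination or of amplification. Virgin mice gave MS1213.1, MS1163.1 and MS1163.2, and parous mice gave MS1218.2 together with MS1155.3. Of the epithelial tumours, 3 were not/low-amplified, each from a parous mouse. MS1210.1 and MS1349.1 were adenosquamous carcinomas (ASQC) and MS1166.1 was an AC(NST). The sarcoma, MS1156.1, came from a parous mouse and was not/low-amplified. Ages are not in the labels, and the design text counts 1 mouse per tumour although MS1163.1 and MS1163.2 carry the same mouse number. No virgin mouse gave a not/low-amplified tumour and no ASQC was high-amplified, so amplification, parity and histotype cannot be fully told apart.

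Each library held between 12501225 and 23912429 reads on genes. Values are normalized counts, reads per gene divided by 1 size factor per tumour. The values of a gene are listed for the high-amplified tumours in the order MS1213.1, MS1163.1, MS1163.2, MS1218.2 and MS1155.3, then for the ASQC tumours in the order MS1210.1 and MS1349.1. Erbb2 was at 5284 to 105019 in the high-amplified tumours, at 1532 to 2783 in the other epithelial tumours and at 1177 in the sarcoma. The sum of 5 epithelial markers was 455 in the sarcoma and 30715 to 126241 in the other 8 tumours. Among the epithelial tumours MS1218.2 stood apart, with the highest sums of fibroblast (251577), endothelial (10794) and macrophage (27299) markers, and the medians are given with and without it. It is also the tumour that the study's own purity estimate set apart from the rest.

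Cells license replication origins in G1, when Cdc6 and Cdt1 load the Mcm2-7 helicase onto DNA, and geminin (Gmnn) then holds Cdt1 in check. Cyclin E starts S phase, in which E2F factors drive the genes of the replication fork and of nucleotide supply. In G2, Foxm1 and B-Myb (Mybl2) act with the MuvB complex on the genes of mitosis, among them cyclin B, the mitotic kinases, the spindle checkpoint and the motor proteins. Both gene sets are near silent in resting cells, and in tumours their RNA is widely used as a measure of the dividing fraction. In whole tissue, fewer cells of a type and less RNA per cell cannot be told apart.

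The members were first compared in sequence, since textbook control differs between the phases: E2F sites at many S phase genes and a cell cycle homology region (CHR) at many mitotic genes. Of the 42 listed genes, 34 had a RefSeq promoter (GRCm38.p6, 250 bases before to 50 bases after the start). Both strands were searched for TTTGAA as the CHR, for TTTGGCGC or TTTCCCGC as E2F letters, and for CCAAT. The CHR letters stood in 14 of 20 mitosis members and in 2 of 14 S phase members (Cdc45 and Mcm2), against 20.2% of the 27025 genes of the table. The E2F letters stood in 6 of 14 S phase members (Cdc6, Cdt1, Mcm3, Mcm5, Mcm6 and Mcm7) and in 0 of 20 mitosis members, against 1.80% of all genes. CCAAT stood in 9 S phase and 17 mitosis members, against 41.1% of all genes. No member held both CHR and E2F letters, and no 2 motifs overlapped in a member's promoter. A match is a description of letters and not of binding. The 160 bases before the start are shown for members on which results below turn, 5′ to 3′ on the gene's strand. Capitals mark the E2F letters in the first 3 and the CHR letters in the others, on either strand.
Mcm6 (chr1:128359706-128359865, minus strand): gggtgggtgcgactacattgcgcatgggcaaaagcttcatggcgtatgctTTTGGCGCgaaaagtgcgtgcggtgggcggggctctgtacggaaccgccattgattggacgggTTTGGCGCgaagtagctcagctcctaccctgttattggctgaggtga
Mcm5 (chr8:75109349-75109508, plus strand): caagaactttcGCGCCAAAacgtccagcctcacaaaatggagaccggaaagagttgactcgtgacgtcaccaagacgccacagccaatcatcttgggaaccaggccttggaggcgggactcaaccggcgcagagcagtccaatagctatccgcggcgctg
Cdc6 (chr11:98907991-98908150, plus strand): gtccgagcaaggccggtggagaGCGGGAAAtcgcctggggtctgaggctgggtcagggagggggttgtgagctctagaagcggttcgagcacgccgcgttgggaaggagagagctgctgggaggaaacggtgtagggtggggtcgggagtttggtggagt
Cdc20 (chr4:118437344-118437503, minus strand): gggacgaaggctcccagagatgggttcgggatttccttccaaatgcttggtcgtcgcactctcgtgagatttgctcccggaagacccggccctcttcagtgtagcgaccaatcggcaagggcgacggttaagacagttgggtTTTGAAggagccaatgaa
Ube2c (chr2:164769769-164769928, plus strand): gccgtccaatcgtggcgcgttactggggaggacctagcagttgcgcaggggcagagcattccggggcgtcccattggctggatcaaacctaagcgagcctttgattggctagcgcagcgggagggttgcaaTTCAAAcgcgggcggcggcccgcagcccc
Cdk1 (chr10:69352913-69353072, minus strand): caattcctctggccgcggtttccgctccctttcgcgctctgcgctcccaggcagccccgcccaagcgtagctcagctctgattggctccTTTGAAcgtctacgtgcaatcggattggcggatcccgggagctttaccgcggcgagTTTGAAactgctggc
Top2a (chr11:99024190-99024349, minus strand): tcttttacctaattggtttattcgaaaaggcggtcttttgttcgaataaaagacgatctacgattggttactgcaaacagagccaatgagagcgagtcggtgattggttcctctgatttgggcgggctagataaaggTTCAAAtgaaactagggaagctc
Mcm6 held the E2F letters at 2 places, beginning 110 and 47 bases before the start, and Cdk1 held the CHR letters at 2 places, beginning 71 and 15 bases before it. In Cdc20 and Top2a the CHR letters began 18 and 23 bases before the start.

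Cell cycle RNA varied widely between the epithelial tumours, and it varied together over both phases. A level per tumour was taken as the mean of log2(normalized count + 1) over the members of a phase. It was highest in the not/low-amplified AC(NST) tumour MS1166.1, at 10.31 over the 16 S phase members and 10.34 over the 25 mitosis members. Next came MS1163.2, at 9.71 and 9.79. MS1349.1, MS1163.1 and MS1210.1 lay close together, between 9.29 and 9.52 for S phase and between 9.31 and 9.41 for mitosis. The lowest epithelial levels were those of 3 high-amplified tumours. MS1155.3 was at 8.48 for S phase and 8.58 for mitosis, and MS1218.2 at 8.55 and 8.21. MS1213.1 was lowest of the 8 in both, at 8.05 and 7.92.

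Single members followed the same order. MS1166.1 was the highest of the 9 tumours for 13 of 16 S phase and 20 of 25 mitosis members, where it was the highest for 20% of all 14007 genes tested. MS1213.1 was the lowest of the 9 for 5 S phase and 14 mitosis members, against 7.92% of all genes. MS1163.1 and MS1163.2, which share a mouse number, both lay above the other 3 high-amplified tumours for 14 of 16 S phase and 24 of 25 mitosis members, against 13.2% of all genes. The highest epithelial value of a member was between 2.26 times (Foxm1) and 14.5 times (Cdc20) its lowest. The spread within the high-amplified group alone ran from 1.70 times for Birc5 to 8.38 times for Kif11. MS1166.1, first in the order, also had the highest epithelial marker sum (126241). Its fibroblast, endothelial and macrophage sums were the lowest of all 9 tumours (21654, 1711 and 1941). Singly, Col1a1, Col1a2, Dcn, Pecam1, Cdh5, Kdr, Adgre1, Csf1r and C1qa were lowest in MS1166.1. Its Tek (479) was below only that of MS1218.2 (508), and its Pdgfra (1404), Lum (321) and Cd68 (316) were not the lowest. The fibroblast sum of MS1166.1 was mostly Col1a1 (9993) and Col1a2 (9570). The epithelial sum did not follow the order further. MS1163.2, next in level for both phases, had the lowest epithelial sum of the epithelial tumours (30715). MS1213.1, lowest of these in level, was at 31878. The part of these markers in the order was not tested.

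**Figure D1:**
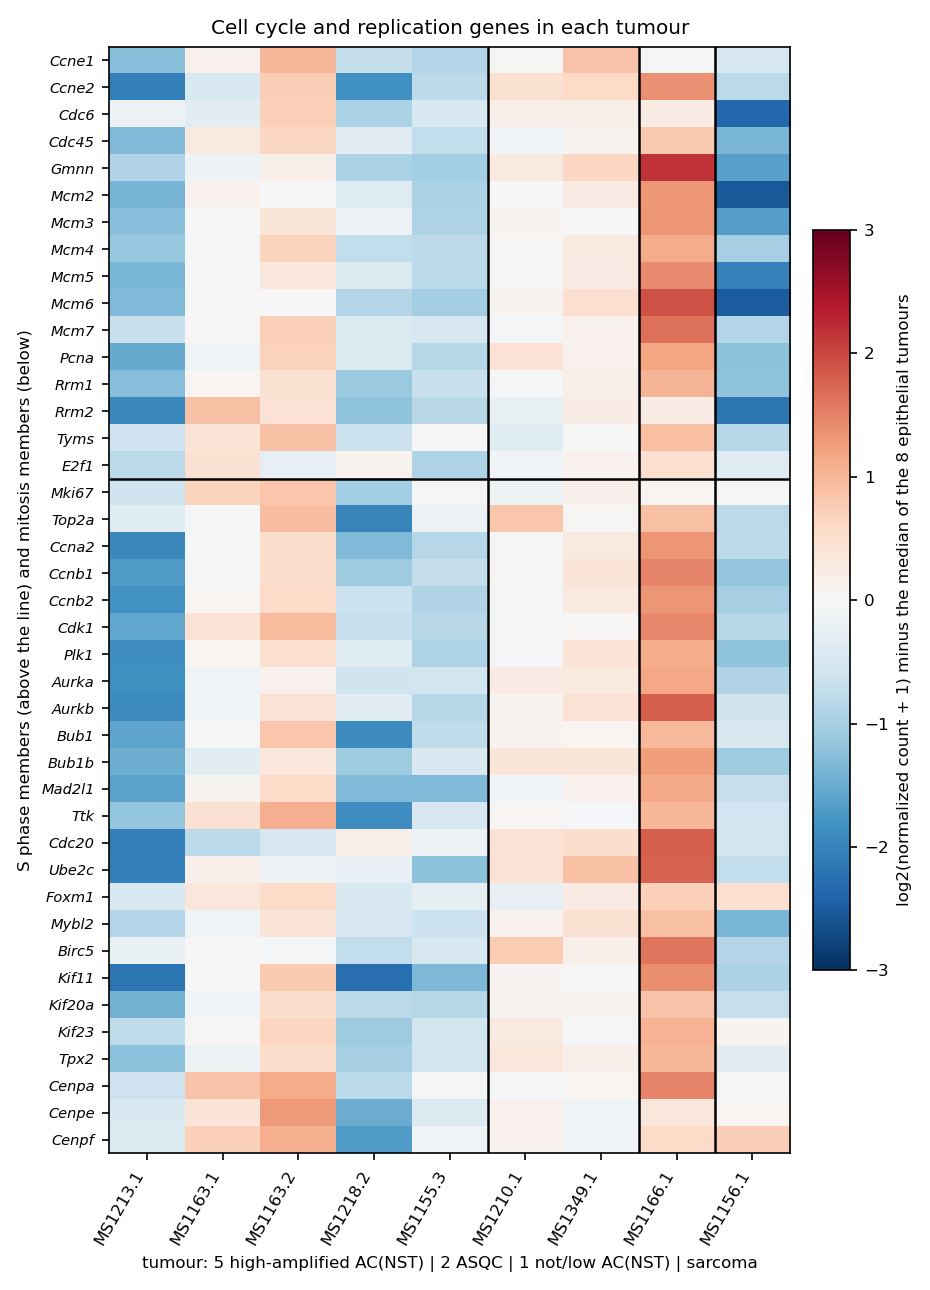
Heatmap of the 41 members (rows, S phase above the black line and mitosis below) in the 9 tumours (columns), as log2(normalized count + 1) minus the median of the 8 epithelial tumours for that gene; red is higher and blue lower. MS1166.1 is red for nearly all members, MS1213.1 blue, and the sarcoma MS1156.1 is dark blue for several S phase members, Mcm2 and Mcm6 among them, but not for Foxm1 or Cenpf.

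Members also differed from each other in level. Per kilobase of exon, the median normalized count over the 8 epithelial tumours was highest for Pcna at 681, followed by Top2a at 509, Rrm2 at 433 and Mki67 at 346. The helicase subunits Mcm3 to Mcm7 lay between 268 and 320.5 per kilobase, while Mcm2 was at 131. The length is that of all annotated exons of a gene together, 6956 bases for Mcm2 and 3589 (Mcm4) to 4666 (Mcm6) for the others. Before division by length the medians lay closer, at 910 for Mcm2 and 1007 (Mcm3) to 1402 (Mcm6) for the others. The rank of genes per kilobase thus depends on the annotated length. The regulators were among the lowest, with Foxm1 at 59.3, Cdc6 at 58.9, E2f1 at 57.5, Ccne1 at 54.1 and Mybl2 at 37.8 per kilobase.

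The main comparison asked whether cell cycle RNA differed between the amplification groups of the epithelial tumours. Both phases lay lower in the high-amplified tumours: the log2 fold change of the fit was below 0 for 16 of 16 S phase members, with a median of -0.82, and for 23 of 25 mitosis members, with a median of -0.87. Over all 14007 genes the median was 0.02 and 49% lay below 0. By edgeR's quasi-likelihood test with Benjamini-Hochberg adjustment over all genes, 0 of 41 members were called at an adjusted p under 0.05 and over 2-fold, against 0.485% of all genes called lower and 0.435% called higher. At an unadjusted p under 0.05, 5 S phase and 7 mitosis members were lower and 0 were higher, against 11% of all genes lower. DESeq2 called 5 of the 41 lower (Gmnn, Mcm6, Birc5, Ube2c and Cdc20) and 0 higher, against 4.54% of all genes called lower and 5.94% higher. The groups did not overlap for 7 members, all lower in the high-amplified tumours (Gmnn, Mcm6, Birc5, Ube2c, Cdc20, Bub1b and Aurka), against 8.04% of all genes. The members rise and fall together, so their number does not add independent evidence.

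The size of the difference rested on MS1166.1. Without it, the medians were -0.42 for S phase and -0.52 for mitosis and 0 of 41 members had an unadjusted p under 0.05, where 12 had one with all tumours. That number was 27 without MS1163.2, 14 without MS1210.1, 11 without MS1349.1 and 10 without MS1163.1. It was 8 without MS1213.1, 7 without MS1218.2 and 6 without MS1155.3. Calls over all genes, higher and lower, moved too, from 61 and 68 with all tumours. They were 16 and 68 without MS1166.1, 9 and 7 without MS1163.2, and 27 and 10 without MS1213.1. Without MS1218.2 they were 751 and 504, and without MS1155.3 7 and 6. The share of all genes at an unadjusted p under 0.05 was taken only for the fit of all tumours, not for these fits or those below. The medians without MS1218.2 were -0.73 and -0.74. Without both MS1213.1 and MS1218.2, whose copy number differed between assays, they were -0.53 and -0.52. There, 6 members had an unadjusted p under 0.05, and 373 of all genes were called higher and 154 lower. Between the high-amplified tumours and MS1166.1 alone, all AC(NST), the medians were -1.44 and -1.48. In the parous tumours alone 21 members had an unadjusted p under 0.05 and 0 were called, with 0 of all genes called either way. The epithelial marker sum also separated the groups, at 30715 to 48492 in the high-amplified and 73976 to 126241 in the not/low-amplified tumours. No marker of that list was at 0. Cdh1, Krt8 and Krt19 separated the groups singly too, while Epcam and Krt18 overlapped between them. Krt19 was at 98.6 to 4057 in the high-amplified and 17329 to 25709 in the not/low-amplified tumours. The sum of 5 squamous or basal markers separated the groups as well, at 81.8 to 3605 and 6535 to 55526. In MS1166.1 that sum was nearly all Krt14 (6495). Its Krt5 (11.9) and Trp63 (13.1) were the lowest of the epithelial tumours, with 1392 and 743 in the high-amplified MS1155.3. Its Krt10 (15.5) lay within the high-amplified range and its Ivl was at 0. The part of either sum in the result was not tested.

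**Figure D2:**
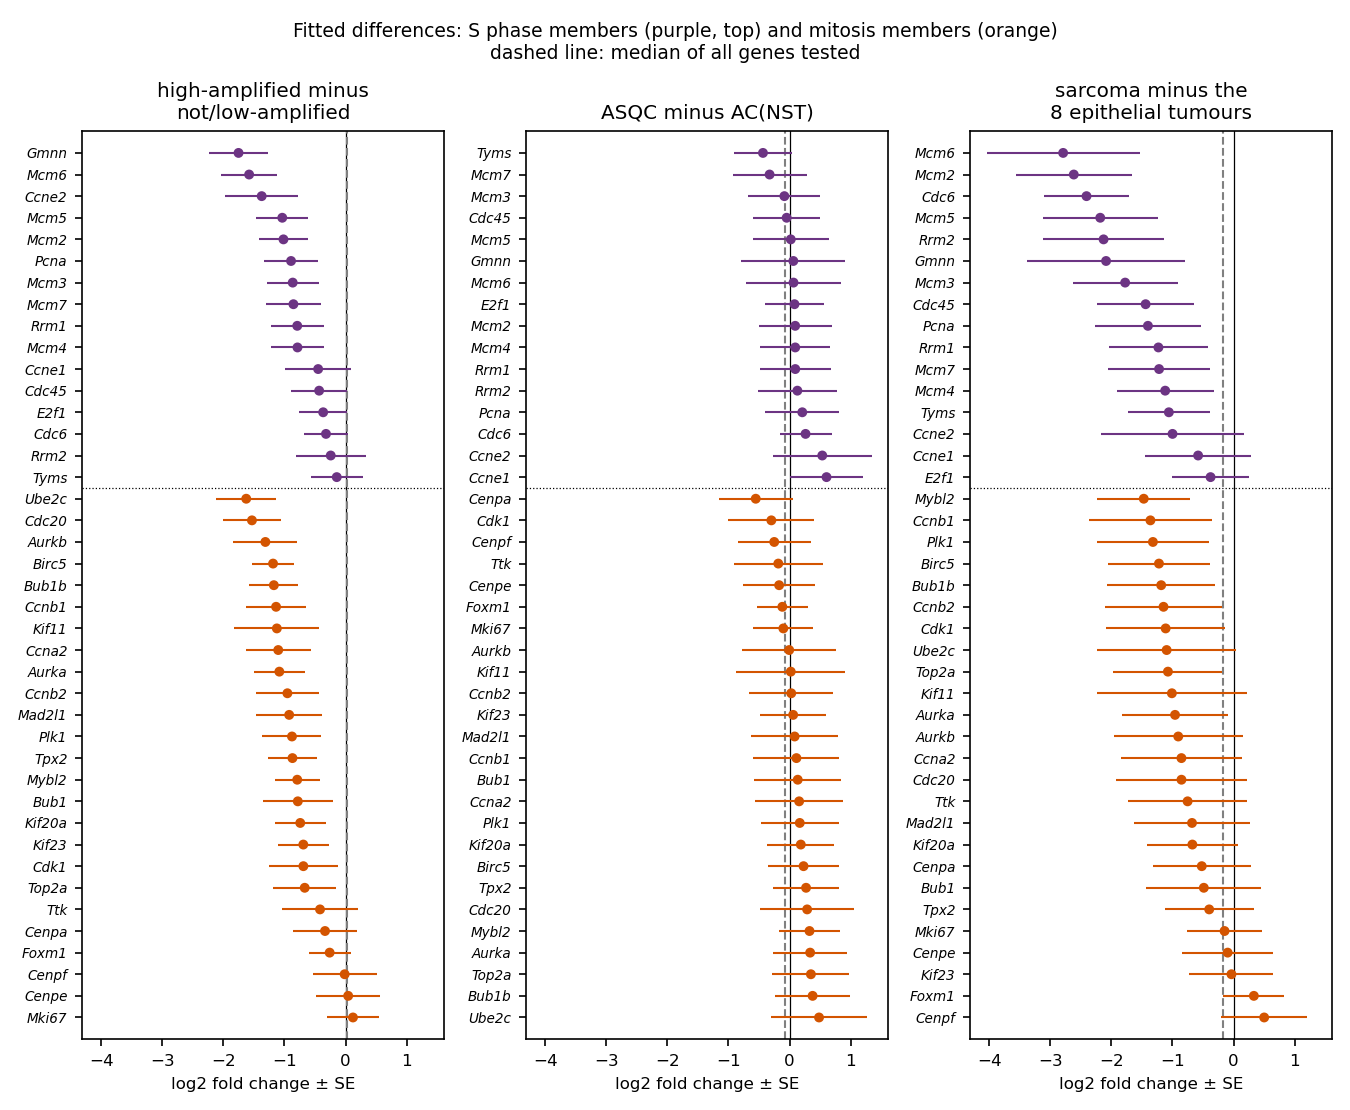
Log2 fold change ± standard error of each member in the 3 comparisons (x axis, one panel each), sorted within S phase members (purple) and mitosis members (orange); the dashed line is the median of all genes tested. Nearly all members lie left of 0 in the amplification panel, both phases straddle 0 between ASQC and AC(NST), and in the sarcoma panel the S phase members reach further left than the mitosis members.

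Among the licensing genes, Gmnn (ENSMUSG00000006715, chr13:24751845-24761923 on GRCm38), which encodes the inhibitor geminin, had the smallest p of the S phase members. Its normalized counts were 87.6, 148, 185, 85.2 and 79.9 in the high-amplified tumours, 200.4 and 256 in ASQC tumours, 751 in MS1166.1 and 53.0 in the sarcoma. Every high-amplified tumour lay below every not/low-amplified one, with MS1166.1 far above the rest. The log2 fold change, high-amplified against not/low-amplified, was -1.75 ± 0.49 (SE), with an edgeR adjusted p of 0.0914 and a DESeq2 adjusted p of 0.0142.

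Cdc6 (ENSMUSG00000017499, chr11:98907801-98923940) encodes the loader of the helicase. It was at 272, 244, 499.6, 159 and 224 in the high-amplified tumours, at 352 and 345 in ASQC tumours, at 359 in MS1166.1 and at 58.6 in the sarcoma. The epithelial groups overlapped, and the sarcoma lay below all 8 epithelial tumours. Cdc6 lies 470.1 kb and Top2a 555 kb beyond the end of Erbb2 on chromosome 11. Relative to the mean of the other S phase members, Cdc6 was 0.04 on the log2 scale in MS1213.1 and between -1.94 and -0.71 in the other epithelial tumours. MS1155.3, which had the highest Erbb2 (105019), was at -0.71. Top2a, relative to the other mitosis members, was 4.05 in MS1213.1 and between 2.05 and 3.78 in the other epithelial tumours. The part of the position beside Erbb2 in these values was not tested.

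The 6 subunits of the Mcm2-7 helicase, which unwinds DNA at the fork, shared 1 pattern: lowest in MS1213.1 of the epithelial tumours and highest in MS1166.1. Mcm6 (ENSMUSG00000026355, chr1:128331590-128359664), whose promoter held the pair of E2F matches above, was at 558, 1402, 1402, 765 and 678 in the high-amplified tumours, 1481 and 1978 in ASQC tumours, 5298 in MS1166.1 and 247 in the sarcoma. High-amplified and not/low-amplified tumours did not overlap, at a log2 fold change of -1.58 ± 0.46 (edgeR adjusted p = 0.1; DESeq2 adjusted p = 0.0258). Mcm2 (chr6:88883474-88898780) was at 348, 997, 909.7, 699 and 474, then 909 and 1077 in ASQC tumours, 2239 in MS1166.1 and 158 in the sarcoma. Here 1 ASQC tumour lay within the high-amplified range, and the log2 fold change was -1.02 ± 0.41 (edgeR adjusted p = 0.179). Mcm5 (chr8:75109569-75128439) was at 495, 1249.7, 1586, 960.0 and 729, then 1309.6 and 1512 in ASQC tumours, 3447 in MS1166.1 and 314 in the sarcoma. Its groups overlapped too, at -1.04 ± 0.42 (edgeR adjusted p = 0.184). Mcm3, Mcm4 and Mcm7 had log2 fold changes of -0.87, -0.79 and -0.85, none called. Of the exon bases of Mcm7, 12.6% are shared with other genes.

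At the G1/S boundary, the E cyclins that activate Cdk2 differed from each other. Ccne1 was at 58.7, 156, 288, 87.9 and 77.3 in the high-amplified tumours, 146 and 260.1 in ASQC tumours, 142 in MS1166.1 and 103 in the sarcoma. MS1163.2 was its highest tumour, and MS1166.1 lay inside the high-amplified range. Ccne2 was at 52.0, 161, 367, 61.1 and 126, then 301 and 332 in ASQC tumours, 567 in MS1166.1 and 124 in the sarcoma. It was highest in MS1166.1 and had a log2 fold change of -1.37 ± 0.59 (edgeR adjusted p = 0.206), with 17.4% of its exon bases shared with Ints8. E2f1, the activator of S phase genes, varied least of the S phase members across the epithelial tumours, at 103, 248, 152, 193 and 95.3 in the high-amplified tumours, 169.5 and 197 in ASQC tumours, 255 in MS1166.1 and 138 in the sarcoma. Cdc45, which joins the helicase at the firing origin, ran from 81.9 in MS1213.1 to 356 in MS1166.1 among the epithelial tumours.

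Of the fork and nucleotide genes, Pcna, the sliding clamp of the polymerases, was at 572, 1485, 2629.7, 1232 and 900.4 in the high-amplified tumours, 2209 and 1786 in ASQC tumours, 3686 in MS1166.1 and 693 in the sarcoma. Its groups overlapped through MS1163.2, and the log2 fold change was -0.89 ± 0.45 (edgeR adjusted p = 0.268). Rrm2, the regulated subunit of ribonucleotide reductase, was at 311, 2199, 1616, 514 and 663, then 1019 and 1393 in ASQC tumours, 1381 in MS1166.1 and 264 in the sarcoma. MS1163.1 was its highest tumour, and it varied more within the high-amplified group (7.07 times from lowest to highest) than any other S phase member. Its log2 fold change of -0.24 ± 0.57 was far inside its error. Tyms, thymidylate synthase, was at 355, 730.3, 1004, 351 and 541, then 426 and 552 in ASQC tumours, 1025 in MS1166.1 and 303 in the sarcoma, and its groups overlapped. Rrm1, the large reductase subunit, ran from 999.6 in MS1213.1 to 4914 in MS1166.1.

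In the mitosis set, the activator Foxm1 varied least across the epithelial tumours. It was at 243, 426, 501, 246 and 278 in the high-amplified tumours, 283 and 399.6 in ASQC tumours, 549.6 in MS1166.1 and 467 in the sarcoma. Its groups overlapped and its log2 fold change was -0.26 ± 0.35 (edgeR adjusted p = 0.678). Mybl2, the B-Myb activator, was at 94.4, 161, 227, 122 and 111, then 189 and 239.6 in ASQC tumours, 322 in MS1166.1 and 66.96 in the sarcoma. Unlike Foxm1, it was lowest of the 9 tumours in the sarcoma.

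Cdk1, the kinase that drives entry into mitosis, was at 219, 872, 1254, 401 and 366 in the high-amplified tumours, 637 and 663 in ASQC tumours, 1753 in MS1166.1 and 359.9 in the sarcoma. Its partner Ccnb1 was at 228, 719.8, 1061, 352 and 446, then 757 and 961 in ASQC tumours, 2035 in MS1166.1 and 322 in the sarcoma. Both ASQC tumours lay inside the high-amplified range for both genes, and only MS1166.1 exceeded it. The log2 fold changes were -0.69 ± 0.57 for Cdk1 and -1.14 ± 0.50 for Ccnb1 (edgeR adjusted p = 0.489 and 0.21). Ccnb2 and Ccna2, the other mitotic cyclin genes, were likewise lowest in MS1213.1 and highest in MS1166.1. Aurkb, the kinase of the chromosomal passenger complex, was at 89.6, 318, 455, 271 and 185, then 361 and 455 in ASQC tumours, 1181 in MS1166.1 and 223 in the sarcoma. MS1349.1 lay level with the highest high-amplified tumour and MS1210.1 within their range, and the log2 fold change was -1.31 ± 0.52 (edgeR adjusted p = 0.178). Aurka, which acts at the spindle poles, and Plk1 had log2 fold changes of -1.08 ± 0.42 and -0.88 ± 0.48.

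Of the 3 mitosis members with the smallest p, Ube2c and Cdc20 belong to the machinery of mitotic exit. Ube2c (ENSMUSG00000001403, chr2:164769898-164778822), the ubiquitin-conjugating enzyme of the anaphase-promoting complex, was at 87.6, 404, 332, 308 and 155 in the high-amplified tumours, 495 and 669 in ASQC tumours, 1255 in MS1166.1 and 219 in the sarcoma. The groups did not overlap, at a log2 fold change of -1.63 ± 0.49 (edgeR adjusted p = 0.108; DESeq2 adjusted p = 0.0289). Of its exon bases, 22.8% are shared with Tnnc2, a troponin gene. Cdc20 (ENSMUSG00000006398, chr4:118432901-118437352), the activator of that complex, was at 120.4, 292, 360.4, 571 and 451, then 687 and 734 in ASQC tumours, 1751 in MS1166.1 and 347 in the sarcoma. MS1218.2, low for most mitosis members, was the highest of the high-amplified tumours for Cdc20, and the log2 fold change was -1.53 ± 0.48 (edgeR adjusted p = 0.117; DESeq2 adjusted p = 0.0375). Birc5 (ENSMUSG00000017716, chr11:117849251-117855743), survivin of the passenger complex, was at 274, 320.0, 306, 188 and 225, then 528 and 346 in ASQC tumours, 952 in MS1166.1 and 170.2 in the sarcoma. It varied least within the high-amplified group, and its log2 fold change was -1.19 ± 0.35 (edgeR adjusted p = 0.1; DESeq2 adjusted p = 0.0298). Of the spindle checkpoint genes, Bub1b, which encodes BubR1, was at 279, 624, 971, 371 and 571, then 998 and 999 in ASQC tumours, 1862 in MS1166.1 and 371 in the sarcoma, with no overlap between the amplification groups. Its partners Bub1, Mad2l1 and Ttk had log2 fold changes of -0.78 ± 0.58, -0.92 ± 0.54 and -0.42 ± 0.62, with overlapping groups.

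**Figure D3:**
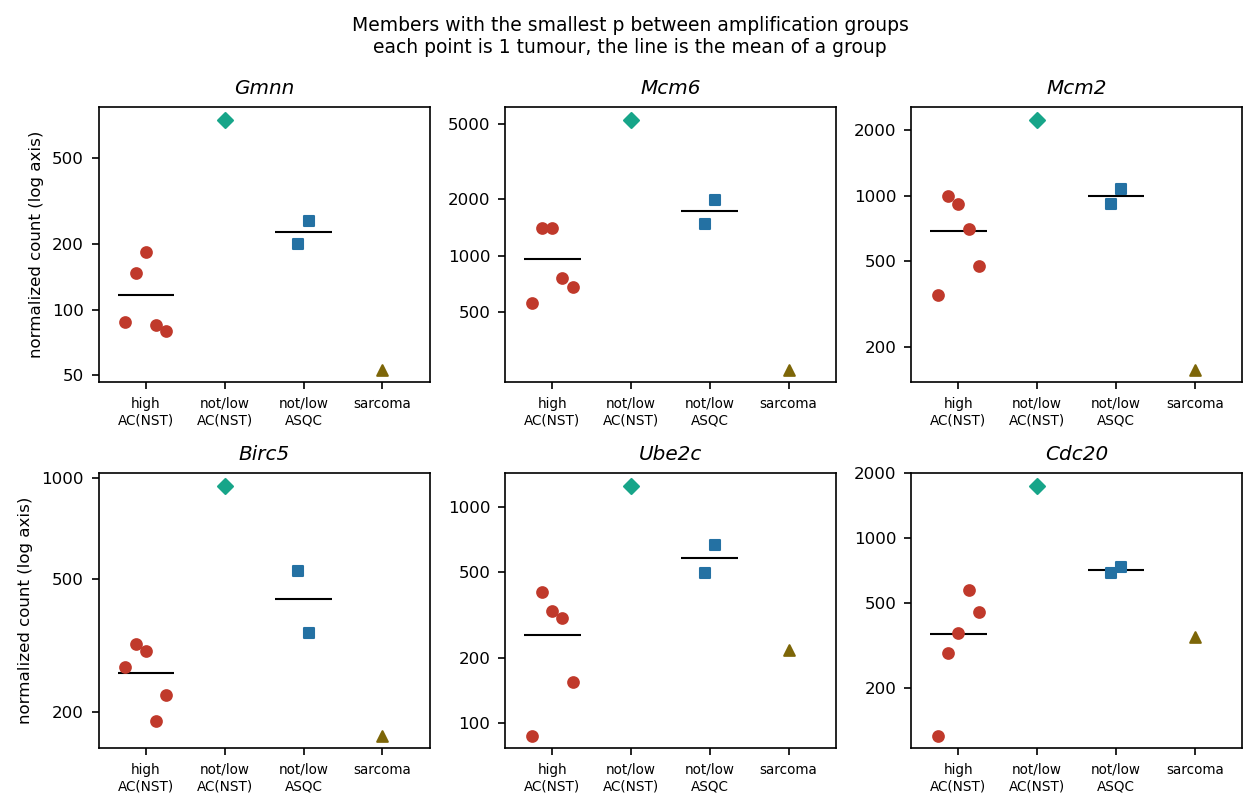
Normalized counts (log axis) of the 3 S phase and 3 mitosis members with the smallest p between amplification groups, 1 point per tumour, with a line at the mean of groups with more than 1 tumour. MS1166.1 (diamond) is the highest point in all 6 panels, the ASQC tumours (squares) lie at or above the top of the high-amplified range (circles) except for MS1210.1 in Mcm2, and the sarcoma (triangle) is lowest in all panels except those of Ube2c and Cdc20.

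Mki67, the gene of the Ki-67 protein and a common proliferation marker, did not follow this order. It was at 2283, 5546, 6246, 1726 and 3350.4 in the high-amplified tumours, 3154 and 3866 in ASQC tumours, 3619.7 in MS1166.1 and 3415 in the sarcoma. MS1163.2 and MS1163.1 were its highest tumours and MS1166.1 lay inside the high-amplified range. The log2 fold change was 0.12 ± 0.42 (edgeR adjusted p = 0.883), one of only 2 above 0, beside that of Cenpe. Top2a (chr11:98992943-99024189), topoisomerase II alpha, was at 3585, 4496, 8729, 1154 and 4046, then 8116 and 4680.2 in ASQC tumours, 8398 in MS1166.1 and 2598 in the sarcoma. MS1218.2 was by far its lowest epithelial tumour, and the groups overlapped at -0.67 ± 0.52 (edgeR adjusted p = 0.462). Cenpa, the centromeric histone, was at 248, 687, 828, 218 and 366, then 367 and 393 in ASQC tumours, 1043 in MS1166.1 and 365 in the sarcoma. Both ASQC tumours lay near the median of the high-amplified tumours. The large kinetochore genes Cenpe and Cenpf were highest in MS1163.2 and had log2 fold changes of 0.04 ± 0.52 and -0.01 ± 0.52. Of the motor genes, Kif11, which pushes the spindle poles apart, had the widest range within the high-amplified group, from 246 to 2063, and reached 3140.3 in MS1166.1. Kif20a, Kif23 and Tpx2 had log2 fold changes of -0.74 ± 0.42, -0.69 ± 0.42 and -0.87 ± 0.40, and Kif20a shares 29.3% of its exon bases with Cdc23.

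Between histotypes, ASQC against AC(NST), no member of either phase passed a test. The median log2 fold change was 0.09 over S phase and 0.11 over mitosis members, where it was -0.08 over all genes. By edgeR 0 of 41 members were called, against 0.221% of all genes called higher and 0.0143% lower, and 0 had an unadjusted p under 0.05 (all genes, 8.72%). DESeq2 called 0 members, against 1.94% of all genes higher and 1.4% lower. Both ASQC tumours lay within the range of the 6 AC(NST) tumours for 41 of 41 members, against 68.4% of all genes, and within that of the 5 high-amplified tumours for 31, against 51%. Both lay above the median of the high-amplified tumours for 39 of 41, against 41.4% of all genes. The member with the smallest p was Ccne1, at a log2 fold change of 0.61 ± 0.60 (edgeR adjusted p = 0.817), followed by Cenpa at -0.55 ± 0.61 and Tyms at -0.44 ± 0.48. Ccne2, Mybl2 and Bub1b stood at 0.54 ± 0.81, 0.33 ± 0.50 and 0.38 ± 0.61, and Mki67 at -0.10 ± 0.49. Standard errors ran from 0.42 (Foxm1) to 0.89 (Kif11) on the log2 scale. With 2 ASQC tumours the fit can miss differences of several fold, so the lack of calls does not show that the histotypes were alike. In a larger set of BlgCre-NeuKI tumours the study reported a significantly lower mitotic index in ASQC than in AC(NST). That index was scored on tissue, while the values here are RNA. Without MS1166.1 the ASQC tumours are set against the high-amplified tumours alone, the same fit as the amplification comparison without it, and the medians were 0.42 and 0.52, again with 0 members called. Without MS1218.2 they were -0.04 and -0.06, and without MS1213.1 -0.07 and -0.06, so the sign of the medians rested on single tumours. The squamous or basal marker sum was at 55526 and 8317 in the ASQC tumours and at 81.8 to 6535 in the AC(NST) tumours. Of the AC(NST) tumours it was highest in MS1166.1, where it was nearly all Krt14 (6495). For Krt5 and Trp63 MS1166.1 was the lowest AC(NST) tumour, at 11.9 and 13.1. MS1155.3 was the highest of them for both, at 1392 and 743.

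The sarcoma differed in the balance of the phases. Over S phase members its level was the lowest of the 9 tumours, at 7.80, while over mitosis members, at 8.64, it ranked 6 of 9, above MS1155.3, MS1218.2 and MS1213.1. The difference of the levels, mitosis minus S phase, was 0.83 in the sarcoma and between -0.34 and 0.11 in the 8 epithelial tumours. It lay below all 8 epithelial tumours for 10 of 16 S phase members but 2 of 25 mitosis members (Mybl2 and Birc5), against 20.6% of all genes. It exceeded the epithelial median for 0 S phase members and for 4 mitosis members (Foxm1, Kif23, Cenpe and Cenpf), against 48.7% of all genes. There is 1 sarcoma, so this balance has no replicate, and the sarcoma also lacked epithelial markers and held 9165 normalized counts of the muscle genes Ckm and Myh4, of which the epithelial tumours held 0.703 to 2022. Its fibroblast marker sum of 337758 was the highest of the 9 tumours. The part of these cells in the balance was not tested.

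**Figure D4:**
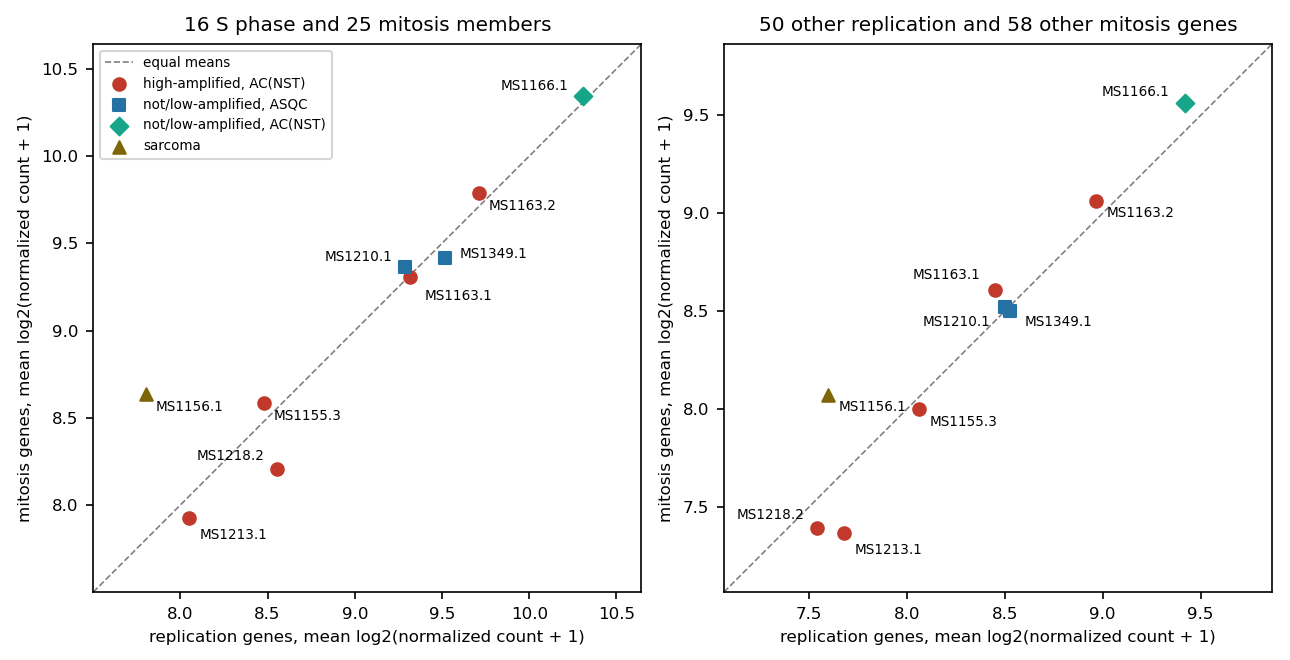
Mean log2(normalized count + 1) over replication genes (x axis) and mitosis genes (y axis), 1 point per tumour, for the 41 members (left) and for 50 other replication and 58 other mitosis genes (right); the dashed line marks equal means. The 8 epithelial tumours lie along the line in both panels, and the sarcoma (triangle) lies above it.

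In the fit of the sarcoma against the 8 epithelial tumours the lone tumour is taken to vary like the others. The median log2 fold change was -1.42 over S phase members and -0.85 over mitosis members, against -0.18 over the 14145 genes tested. Without MS1218.2 the members' medians were -1.47 and -0.97. By edgeR 0 of 41 members were called, against 2.47% of all genes called lower and 4.48% higher, and 4 had an unadjusted p under 0.05, all of them S phase members and lower (all genes lower, 9.23%). DESeq2 called 2 lower, Cdc6 and Mcm2, against 7.79% of all genes, and 0 higher, against 7.2%. The 4 were Cdc6 at -2.41 ± 0.69, Mcm2 at -2.62 ± 0.95, Mcm5 at -2.18 ± 0.94 and Mcm6 at -2.79 ± 1.25. The share of all 41 members was thus close to that of all genes. Cdc6 had the smallest edgeR adjusted p, 0.0664, and without MS1218.2 it was called, at an adjusted p of 0.0306. The 5 S phase members with E2F letters in the promoter had a median of -2.18 in the sarcoma and the 8 others with a promoter -1.32, with overlapping ranges. The 14 mitosis members with CHR letters and the 6 without were at -0.98 and -0.95. Of the mitosis members, Foxm1 stood at 0.33 ± 0.50, Cenpf at 0.50 ± 0.71 and Mki67 at -0.15 ± 0.62.

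Further genes of the same pathways also lay lower in the high-amplified tumours. Of 50 other replication genes tested, edgeR called 2 lower in the high-amplified tumours and 0 higher (all genes, 0.485% lower and 0.435% higher). Of the 50, 6 had an unadjusted p under 0.05, all lower (all genes lower, 11%). DESeq2 called 5 lower (all genes, 4.54%), and the median log2 fold change was -0.60. E2f2, an E2F activator, was at 74.2, 92.3, 95.7, 185 and 152 in the high-amplified tumours, 1009 and 504 in ASQC tumours, 433 in MS1166.1 and 195 in the sarcoma, a log2 fold change of -2.42 ± 0.41 (edgeR adjusted p = 0.0337). Fen1, the flap endonuclease of lagging strand synthesis, was at 474, 372, 611, 548 and 461, then 1467 and 1079.8 in ASQC tumours, 1306 in MS1166.1 and 146 in the sarcoma, at -1.36 ± 0.24 (edgeR adjusted p = 0.0362). In both genes all 3 not/low-amplified tumours, ASQC and AC(NST) alike, lay above every high-amplified tumour. Of 58 other mitosis genes, 0 were called by edgeR, 10 had an unadjusted p under 0.05, all lower, DESeq2 called 5 lower, against the same shares of all genes, and the median was -0.69. In the histotype fit 0 genes of either list were called, with medians of 0.0020 and -0.10. There, 2 replication and 0 mitosis genes had an unadjusted p under 0.05 (all genes, 8.72%), and DESeq2 called 0. In the sarcoma the medians were -0.88 and -0.48, with 0 called by edgeR, 4 and 1 lower at an unadjusted p under 0.05 (all genes lower, 9.23%), and 3 and 1 called lower by DESeq2 (all genes, 7.79%). Over these genes too the mean mitosis level exceeded the mean replication level by 0.48 in the sarcoma, and the difference was between -0.31 and 0.16 in the epithelial tumours.

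The 22 genes of G1 control, upstream of both phases, are a mixed list of activators and inhibitors. In the amplification fit their median was -0.46, nearer to 0 than that of the members, with 19 below 0 and 3 above. By edgeR 0 were called, and 2 had an unadjusted p under 0.05, both lower (all genes lower, 11%). DESeq2 called 1 lower (all genes, 4.54%). In the histotype fit 0 were called and 1 had an unadjusted p under 0.05 (all genes, 8.72%). DESeq2 called 0 there (all genes, 1.94% higher and 1.4% lower). In the sarcoma fit their median was -0.07, with 11 above 0 and 11 below. The log2 fold changes there ran from -2.37 (Myc) to 3.54 ± 0.66 (Ccnd2, a D-type cyclin that starts the passage through G1). Ccnd2 was at 683, 654, 737, 1148 and 447 in the high-amplified tumours, 1233 and 1096 in ASQC tumours, 120.1 in MS1166.1 and 9058 in the 1 sarcoma. Of the replication-dependent histone genes, 45 of 49 could be tested. The median was -1.29 between amplification groups, -0.71 between histotypes and -1.65 in the sarcoma, and edgeR called 0 in each. At an unadjusted p under 0.05 these counts were 17, 0 and 1, all lower, where 11% of all genes were lower in the amplification fit, 8.72% differed in the histotype fit and 9.23% were lower in the sarcoma. DESeq2 called 1, 0 and 0. Histone genes are near-identical copies and only uniquely placed reads were kept, so their counts are uncertain.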

How the data were processed

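Total RNA of 9 snap-frozen tumours was depleted of ribosomal RNA and sequenced in pairs. The authors aligned reads with STAR to mouse build 38 with unstranded settings, kept unique positions and counted reads per gene with HTSeq-count. These deposited counts are whole numbers. For the epithelial tumours the authors also deposited signal values, which equal those counts after division by 1 size factor per tumour. The sarcoma was scaled here to the same reference. The libraries kept strand, but the strand setting of the counting is not given in the sources used here, so reads of overlapping genes may not have been told apart.

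Comparisons used edgeR 4.0.16 (TMM, glmQLFit and glmQLFTest, Benjamini-Hochberg adjustment over all genes) under R 4.3.3, with at least 10 counts in at least 3 tumours. Calls needed an adjusted p under 0.05 and over 2-fold. All 41 members passed the filter. DESeq2 1.42.0 and the settings named in the closing section were alternatives. Each tumour was a replicate, and p-values treat MS1163.1 and MS1163.2 as separate. Levels per tumour used log2(normalized count + 1). Genes with values in every tumour were the 15 of 16 fixed anchors that had a row, every called member and the 3 S phase and 3 mitosis members with the smallest p in the amplification and histotype fits; the other members were placed beside them by role, Cdc6 in full after its values were seen. The fits were tested on simulated data. Positions came from GENCODE M21 (GRCm38) and promoters from RefSeq (GRCm38.p6). The members and gene lists were chosen with earlier results of these data known.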

Additional observations from a re-analysis of the deposited data

Results flagged for a closer look

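Of 88 sets of values examined for a tumour far from the others (each member and level within the 5 high-amplified and within the 6 AC(NST) tumours), 2 held one, and chance flags about 1 in 20. Both were MS1166.1 within the AC(NST) tumours. Gmnn was at 9.55 on the log2 scale there, against 7.54 in the next highest tumour and 6.34 in the lowest. Birc5 was at 9.90, against 8.33 in the next highest and 7.56 in the lowest. MS1166.1 is the one AC(NST) tumour that was not/low-amplified.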

How the results depend on the processing

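The direction of both phase medians between amplification groups held under all alternatives. Leaving out each tumour in turn, the S phase median ran from -1.10 to -0.42 and the mitosis median from -1.19 to -0.52, and 0 members were called in each. For ASQC against AC(NST) the medians ran from -0.07 to 0.42 and from -0.06 to 0.52, again with 0 members called. For the sarcoma they ran from -1.54 to -1.24 and from -1.002 to -0.55, with 0 to 1 member called lower. DESeq2 called 5 members lower between amplification groups and 2 in the sarcoma. The smallest adjusted p of a member in the edgeR fits of the amplification comparison was between 0.0544 (without MS1218.2) and 0.400 (sarcoma added to the not/low-amplified tumours).

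Counts over all genes moved more. Higher and lower in the high-amplified tumours, DESeq2 called 902 and 689 genes, the sums of MS1163.1 with MS1163.2 gave 18 and 13, the sarcoma added to the not/low-amplified group gave 3 and 0, AC(NST) tumours only gave 7 and 33, leaving out both MS1213.1 and MS1218.2 (chosen after seeing the data) gave 373 and 154, and parous tumours only and parity as a covariate both gave 0 and 0. With no filter 139 genes were called lower, and with a mean count of at least 50 there were 92 called higher. Leaving out 1 tumour gave 0 to 751 higher and 1 to 504 lower, both highest without MS1218.2 and lowest without MS1210.1. For ASQC against AC(NST), DESeq2 called 301 and 217, no filter 167 and 4, the summed pair 17 and 1, parous tumours only 1 and 0, a mean count of at least 50 called 85 higher, and leaving out 1 tumour gave 4 to 68 and 0 to 16. For the sarcoma, DESeq2 called 1072 and 1160, and leaving out 1 tumour gave 510 to 796 and 275 to 424.

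With the median in place of the mean over members, the level of mitosis minus S phase was 1.23 higher in the sarcoma than in the epithelial tumours, where it was 0.87 higher with the mean, and -0.15 in ASQC against AC(NST), where it was 0.03 with the mean. The S phase level of the high-amplified minus the not/low-amplified tumours was -0.88. It was -0.86 with a pseudocount of 10 and -0.83 with TMM-scaled CPM. With 3 or fewer tumours in the smaller group, and 1 sarcoma, most changes even of several fold can be missed.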
